A study of Homo sapiens with 28 samples.

Results

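The HDAC3-NCoR corepressor complex was followed through its 5 core genes, HDAC3, NCOR1, TBL1X, TBL1XR1 and GPS2, out of 26475 genes listed in each deposited expression table. The genes were taken as named subunits of the complex, at a time when earlier results of these data were known. All 5 were above the filter on low values in both series. All 28 libraries came from LNCaP, a human androgen-responsive prostate cancer cell line that was derived from a lymph node metastasis. In the knockdown (KD) series, cells carried a control hairpin (shCtrl) or 1 hairpin clone against HOXB13 (shHOXB13), each alone, with 1 hairpin against p300 (shp300), with 1 hairpin against CBP (shCBP), or with both (shp300/CBP), and there were 2 libraries for each of these 8 groups. In the inhibitor series, shCtrl or shHOXB13 cells received DMSO or 250 nM CCS1477, an inhibitor of the p300 and CBP bromodomains, for 48 hours, and there were 3 libraries for each of these 4 groups. Every cell therefore carried at least 1 lentiviral hairpin, and no untransduced cells were included.

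HDAC3 is a histone deacetylase that is nearly inactive until it is bound by a corepressor scaffold such as NCoR (NCOR1), a large protein that brings it to nuclear receptors and other DNA-bound factors. TBL1X and TBL1XR1 are closely related WD40-repeat proteins that bind the scaffold and histones and help to exchange corepressors for coactivators, and GPS2 is a small subunit that holds the scaffold and TBL1 proteins together. The histone acetyltransferases p300 (EP300) and CBP (CREBBP) add the acetyl marks that this complex removes. HOXB13 is a prostate homeobox factor, and the study asked whether lipid synthesis genes respond to its loss by way of p300 and CBP. The libraries measured RNA, so they show how much template there was for the subunits and not how much complex was assembled or where it was bound. In such bulk RNA, fewer cells with a transcript and less of it per cell cannot be told apart.

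In GENCODE 44 (GRCh38), HDAC3 lies at chr5:141620876-141636849, NCOR1 at chr17:16029065-16218185, TBL1XR1 at chr3:177019340-177228000 and GPS2 at chr17:7311324-7315564, all on the minus strand. TBL1X lies on the plus strand at chrX:9463320-9741037. Their canonical transcripts have 15, 46, 16, 11 and 18 exons in that order. The authors counted reads without regard to strand, and some exons overlap those of other genes. For GPS2, 241 exonic bases are shared with EIF5A on the opposite strand, and all 1127 windows of 50 bases in its canonical transcript also occur in an annotated same-strand readthrough gene, so GPS2 values are the least certain of the 5. For the other members, between 0.66% (TBL1X, shared with its Y-linked homologue) and 2.7% (NCOR1, mainly shared with TTC19) of the windows were shared.

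The 150 bases before the start of the members whose RNA moved with HOXB13 KD are shown. On values rescaled as described below, NCOR1, TBL1X and TBL1XR1 were lower and GPS2 higher in the same cells. The RefSeq promoter table (GRCh38.p14) held an entry for all 5 members, and the entry nearest the canonical start was used. Sequences are written along the gene, and capitals mark matches on either strand to CCGGAAG, the core that ETS factors bind, or to GGGCGG, the GC box.
NCOR1, chr17:16215535-16215684, minus strand: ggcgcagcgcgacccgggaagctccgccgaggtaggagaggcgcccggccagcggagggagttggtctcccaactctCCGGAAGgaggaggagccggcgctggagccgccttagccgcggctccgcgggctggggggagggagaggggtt
TBL1X, chrX:9464908-9465057, plus strand: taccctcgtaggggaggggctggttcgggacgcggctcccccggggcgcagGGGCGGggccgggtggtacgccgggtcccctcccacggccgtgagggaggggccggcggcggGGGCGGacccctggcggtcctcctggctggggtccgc
TBL1XR1, chr3:177197483-177197632, minus strand: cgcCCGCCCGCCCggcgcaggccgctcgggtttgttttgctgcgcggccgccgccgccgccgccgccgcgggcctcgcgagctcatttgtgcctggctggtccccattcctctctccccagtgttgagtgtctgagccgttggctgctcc
GPS2, chr17:7315361-7315510, minus strand: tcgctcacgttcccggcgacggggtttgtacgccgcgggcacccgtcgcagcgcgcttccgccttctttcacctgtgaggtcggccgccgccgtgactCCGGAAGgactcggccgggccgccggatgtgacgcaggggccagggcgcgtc
Across the 250 bases before the start, CCGGAAG occurred once each in NCOR1 and GPS2, whose RNA moved in opposite directions on the rescaled values, and in 8.5% of all 35116 promoters in the table. GGGCGG occurred in HDAC3, TBL1X and TBL1XR1 (4 matches in TBL1XR1, some of which overlap) and in 42.6% of all promoters. A hormone-receptor element (AGAACA, in 12.4% of promoters), a HOX-type site (CAATAAA, 3.7%), an E-box (CACGTG, 6.3%), a CRE (TGACGTCA, 1.6%) and CCAAT (in 11240 promoters) were not found in these 250 bases of any member.

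Libraries held 7458934 to 16338528 mapped reads, of which 52.7–74.3% lay in genes in the KD series and 78.4–84.0% in the inhibitor series. The deposited FPKM (fragments per length of gene and per mapped read, in fixed multiples) divide by all mapped reads, and on that scale the median gene was 0.33 log2 units lower with shHOXB13 than with shCtrl in both series (a log2 change of -0.33). The values below are therefore FPKM rescaled within each series so that the median gene is level between libraries. The deposited scale is given wherever it changes a call on a member. Counting error per library was 1.41–7.86% for the 5 genes, from recovered read numbers of 162 to 5060. HOXB13 itself was 72.2 and 73.9 scaled FPKM in the shCtrl and 12.3 and 13.0 in the shHOXB13 libraries of the KD series, and 130.8–135.0 against 32.9–37.9 under DMSO. Luminal markers, among them KLK3, KLK2, FOLH1, TMPRSS2, KRT8 and KRT18, were expressed, whereas 2 of 3 basal, 4 of 5 fibroblast and 3 of 4 immune markers stayed under 1 FPKM in every library. Single markers of other cell types were called with HOXB13 KD under DMSO (KRT14 -4.65, VWF -1.78, COL3A1 -1.43 and CD68 0.78), under CCS1477 (VWF -2.05, COL3A1 -1.29, PDGFRB -0.90, COL1A1 0.47 and CD68 0.67) and in the KD series (KRT14 -4.17, COL1A1 2.08 and CD68 1.51). With CCS1477, COL3A1 and VWF were called lower (-1.04 and -0.51 in shCtrl, -0.90 and -0.78 in shHOXB13 cells), CD68 and COL1A1 higher (0.77 and 0.58, and 0.67 and 0.73), and KRT14 lower in shCtrl cells (-3.26). COL1A1 (1.16) and CD68 were also called higher with shp300/CBP in shHOXB13 cells. Their part in the results was not tested. Replicate 1 of shCtrl DMSO and of shCtrl CCS1477 stood apart from their replicates over all genes (chi-square per degree of freedom 15.5–28.4, against 1.79–6.95 for the other pairs of that series). In the KD series the 2 shHOXB13+shp300/CBP libraries stood as far apart (26.6, against 2.44–9.38 for the other groups), and which of them is the odd one cannot be told. Results are given without such libraries where that matters. Tests are limma fits over all genes of a series with Benjamini-Hochberg adjustment, a call means adjusted p under 0.05, and p-values measure the spread between libraries only.

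HOXB13 KD lowered the RNA of both TBL1 proteins in both series. The scaffold NCOR1 was called lower in the inhibitor series but not in the KD series. On the rescaled values HDAC3 had no called change, and GPS2 was called higher in the KD series and under DMSO. Of the 5 members, 3 were called in the KD series, where 33% of all 17678 genes tested were called, and 4 were called under DMSO, where 53.3% of 15907 genes were called. Under CCS1477, 3 members were called between shHOXB13 and shCtrl, where 40.1% of genes were called. The 3 members that fell under DMSO (NCOR1, TBL1X and TBL1XR1) fell under CCS1477 as well, by log2 changes of -0.44, -0.75 and -0.54. On the deposited scale 0 members were called higher and 4, HDAC3 among them, lower in the KD series, under DMSO and under CCS1477. Of all genes on that scale, 1493 were called higher and 5444 lower in the KD series, 2412 and 6747 under DMSO, and 1903 and 4917 under CCS1477.

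**Figure D1:**
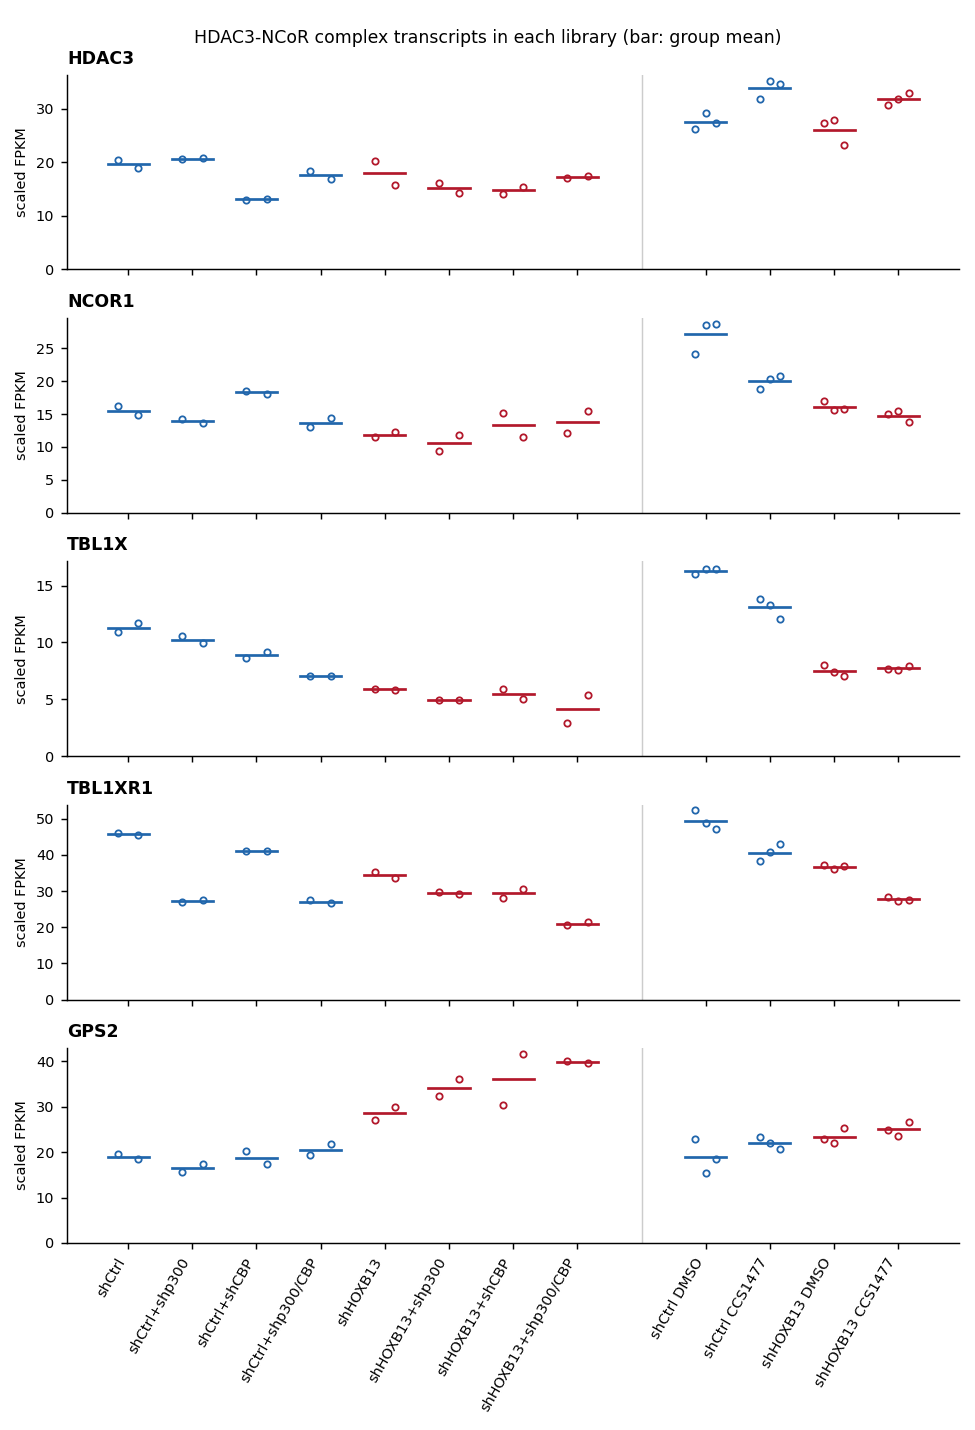
Scaled FPKM (vertical axis, from 0) of the 5 members in each of the 28 libraries, by group, with shCtrl backgrounds in blue, shHOXB13 backgrounds in red and bars at the group means; the KD series is left and the inhibitor series right of the grey line. TBL1X in the shHOXB13 groups of the inhibitor series sat between 7.08 and 8.06, below all shCtrl libraries of that series, whereas HDAC3 libraries of the shCtrl DMSO and shHOXB13 DMSO groups overlapped.

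For HDAC3, the catalytic subunit, the shCtrl libraries of the KD series held 20.4 and 19.0 scaled FPKM and the shHOXB13 libraries 20.2 and 15.8. Under DMSO, the values were 26.2, 29.1 and 27.3 with shCtrl and 27.3, 27.8 and 23.2 with shHOXB13. The groups overlapped in both series. The log2 change was -0.14 ± 0.12 (SE, n = 2 against 2; adjusted p = 0.41, limma) in the KD series and -0.08 ± 0.08 (n = 3 against 3; adjusted p = 0.42) under DMSO, with a 95% interval of -0.25 to 0.09 for the latter. On the deposited scale the same libraries did not overlap and HDAC3 was called lower, by -0.54 (adjusted p = 0.018) and -0.42 (adjusted p = 0.0025), and with equal totals per library it was called lower too, by -0.34 (adjusted p = 0.0496) and -0.37 (adjusted p = 0.013). Under CCS1477 the change was -0.09 (adjusted p = 0.40), and on the deposited scale it was called (-0.30, adjusted p = 0.024). Whether HDAC3 was called lower with HOXB13 KD thus depended on the scaling.

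NCOR1, the scaffold, was 16.2 and 14.8 in shCtrl and 11.4 and 12.2 in shHOXB13 libraries of the KD series. Under DMSO it was 24.2, 28.5 and 28.6 in shCtrl and 17.0, 15.6 and 15.8 in shHOXB13 libraries. Every shHOXB13 library was below every shCtrl library in both series. The log2 change was -0.74 ± 0.08 (SE, n = 3 against 3; adjusted p = 1.1e-05), a level 1.67-fold lower, under DMSO, and -0.39 ± 0.15 (n = 2 against 2; adjusted p = 0.078), not called, in the KD series. The KD value was called on the deposited scale (-0.79, adjusted p = 0.00046), with equal totals (-0.58, adjusted p = 0.032) and with only the 4 libraries compared (adjusted p = 0.044). TTC19, which shares exonic bases with NCOR1, did not move with it under DMSO (log2 change 0.07, adjusted p = 0.43).

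TBL1X changed most of the 5 with HOXB13 KD. It was 10.9 and 11.7 in shCtrl and 5.88 and 5.86 in shHOXB13 libraries of the KD series, and 15.99, 16.4 and 16.5 against 8.06, 7.44 and 7.08 under DMSO. No shHOXB13 library reached 9, and no shCtrl library was below 10. The log2 changes were -0.93 ± 0.21 (adjusted p = 0.0046) and -1.11 ± 0.07 (adjusted p = 1.5e-07), the latter a 2.15-fold lower level. Of all genes tested under DMSO, 1627 had a lower log2 change than TBL1X and 14279 a higher one.

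TBL1XR1, its autosomal homologue, was 46.1 and 45.4 in shCtrl and 35.2 and 33.5 in shHOXB13 libraries of the KD series. Under DMSO it was 52.3, 48.9 and 47.3 against 37.3, 36.1 and 37.0. The groups were separate in both series, and the log2 changes were close, at -0.41 ± 0.08 (adjusted p = 0.0014) and -0.42 ± 0.06 (adjusted p = 8.7e-05), about 1.34-fold lower under DMSO. The changes of TBL1X and TBL1XR1 were called under every alternative setting tried and with each library left out.

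GPS2 was 19.6 and 18.4 in shCtrl and 27.0 and 30.0 in shHOXB13 libraries of the KD series. Under DMSO it was 23.0, 15.4 and 18.4 with shCtrl and 22.8, 21.9 and 25.3 with shHOXB13. The groups were separate in the KD series and overlapped under DMSO. GPS2 was called higher on the rescaled values, by 0.58 ± 0.14 (adjusted p = 0.0083) and 0.32 ± 0.12 (adjusted p = 0.046), but not on the deposited scale, where the changes were 0.18 (adjusted p = 0.44) and -0.03 (adjusted p = 0.86). Both calls were also lost with equal totals per library. The DMSO call was lost as well without a filter on low values and with only the groups compared. The KD call was lost without replicate 2 of shCtrl (adjusted p = 0.052) or of shHOXB13 (0.067), and the DMSO call without replicate 2 of shCtrl (0.19), replicate 3 of shCtrl (0.099) or any of the 3 shHOXB13 libraries (0.052 to 0.14). EIF5A, whose exons overlap GPS2, had a log2 change of -0.50 under DMSO (adjusted p = 0.084), opposite in sign to that of GPS2, and replicate 1 of shCtrl DMSO held the highest value of that group for both genes (EIF5A 193.2 scaled FPKM against 108.8 in the lowest). The part of EIF5A reads in GPS2 values was not tested.

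**Figure D2:**
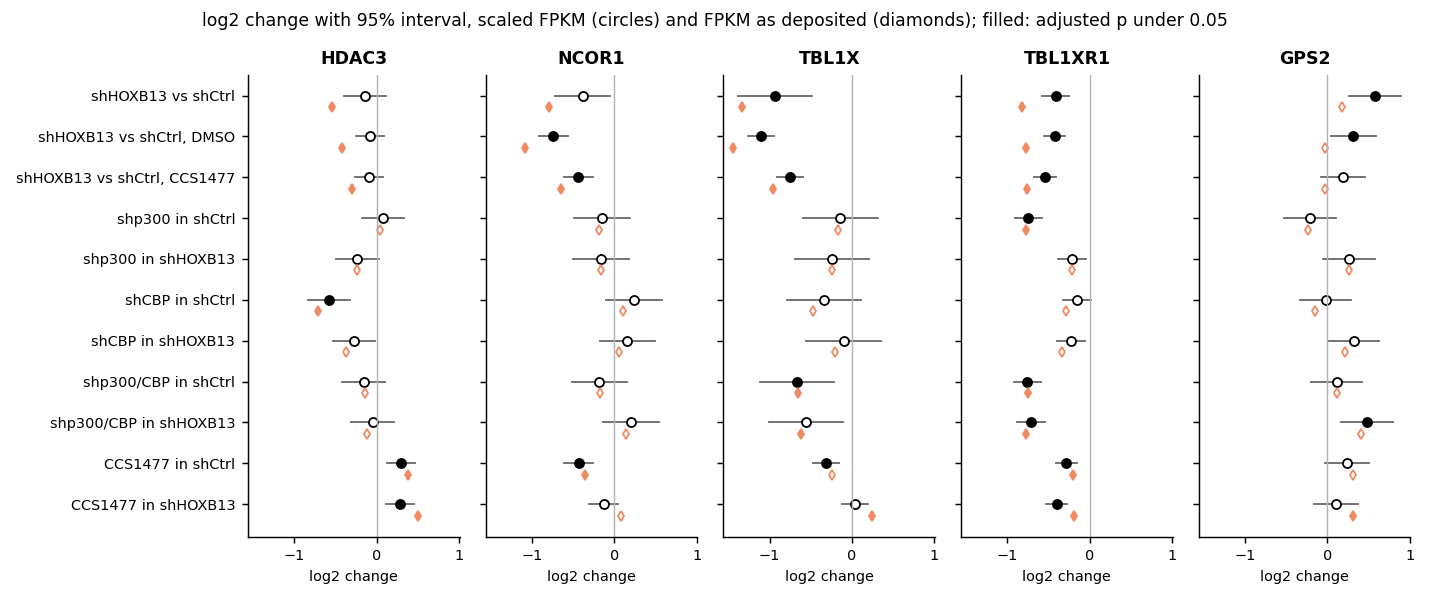
Change of each member (log2, horizontal axis) in 11 comparisons, with circles and 95% intervals for rescaled FPKM and diamonds for FPKM as deposited, filled where adjusted p was under 0.05. For HDAC3 the shHOXB13 comparisons are filled only as diamonds (-0.54, -0.42 and -0.30), whereas for TBL1X and TBL1XR1 both markers are filled in all 3.

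In shCtrl cells, shp300 called 1 of 5 members (TBL1XR1), where 4.73% of all genes were called. With shCBP 1 of 5 (HDAC3) was called, where 13.5% of genes were called. Neither call was kept when only the groups compared were fitted, and the hairpins were not compared with each other in a test. EP300 fell from 9.06–9.50 to 3.76–4.18 scaled FPKM with shp300 (log2 change -1.21, adjusted p = 0.0035), and CREBBP from 5.16–5.31 to 2.65–3.22 with shCBP (-0.82, adjusted p = 0.015). In shHOXB13 cells EP300 was 6.1–6.7 alone, 3.4–4.0 with shp300 and 4.6–5.5 with shp300/CBP. CREBBP in those cells was 5.4–5.6 alone, 3.4–4.2 with shCBP and, overlapping, 4.0–5.7 with shp300/CBP. The part of these target levels in differences between backgrounds was not tested. HOXB13 was also lower with shCBP (-0.74, adjusted p = 0.021) and shp300/CBP (-0.83, adjusted p = 0.0080) in shCtrl cells and with shp300/CBP in shHOXB13 cells (-0.73, adjusted p = 0.011), and its part in the results with these hairpins was not tested.

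TBL1XR1 was the member called with shp300. Against 46.1 and 45.4 in shCtrl, it was 27.0 and 27.5 with shp300 and 27.4 and 26.7 with shp300/CBP, but 41.2 and 41.0 with shCBP. The log2 changes were -0.75 ± 0.08 (n = 2 against 2; adjusted p = 0.00066), -0.76 ± 0.08 (adjusted p = 7.7e-05) and -0.15 ± 0.08 (adjusted p = 0.23) in that order. The shp300 call was lost when only the 4 libraries compared were fitted (adjusted p = 0.073).

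In shHOXB13 cells, the TBL1XR1 values were 35.2 and 33.5 alone, 29.8 and 29.3 with shp300, 28.2 and 30.5 with shCBP, and 20.5 and 21.4 with shp300/CBP. Both single hairpins gave lower libraries without a call (log2 changes of -0.22, adjusted p = 0.092, and -0.23, adjusted p = 0.11), and the pair gave a called fall of -0.71 ± 0.08 (adjusted p = 8.2e-05), which was lost when only the 4 libraries compared were fitted (adjusted p = 0.055). The effect of shp300 on TBL1XR1 was smaller in shHOXB13 than in shCtrl cells by 0.53 ± 0.11 log2 units (interaction, adjusted p = 0.034), the single member called in a comparison that called 1.65% of all genes. That call was lost on the deposited scale (0.56, adjusted p = 0.14), with the replicate block, and without any 1 of the 8 libraries (adjusted p 0.074 to 0.15). With shp300/CBP the interaction for TBL1XR1 was 0.05 ± 0.11 (95% interval -0.19 to 0.28), and 0 of 5 members were called by limma, none of them at an unadjusted p under 0.05 (0 of 5), where 10.4% of all genes were called.

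HDAC3 was the member called with shCBP. It was 13.0 and 13.2 with shCBP, against 20.4 and 19.0 in shCtrl, 20.6 and 20.8 with shp300, and 18.3 and 16.9 with shp300/CBP. Both shCBP libraries were lower than every other library of the KD series. The log2 change was -0.58 ± 0.12 (n = 2 against 2; adjusted p = 0.0078), and it was called on the deposited scale as well (-0.71, adjusted p = 0.015). The call was lost when only the groups compared were fitted (adjusted p = 0.076, limma), and without replicate 1 of shCtrl or of shCtrl+shCBP. With shp300/CBP the HDAC3 change was -0.16 (adjusted p = 0.40) even though the cells carried the same CBP hairpin, and CREBBP was then -0.51 (adjusted p = 0.078). The difference between shCBP and shp300/CBP was not tested.

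In shHOXB13 cells, HDAC3 was 14.2 and 15.4 with shCBP against 20.2 and 15.8 alone, and the groups were separate but not called (-0.27, adjusted p = 0.21). None of the 5 members was called with shCBP in these cells (0 of 5 by limma, 3 at an unadjusted p under 0.05), where 3.39% of genes were called (600 genes, and 23 to 220 with any 1 of the 4 libraries left out), and none with shp300 (0 of 5, 1 at an unadjusted p under 0.05), where 10.4% were called. The interaction of shHOXB13 with shCBP called 0 of 5 members (0 at an unadjusted p under 0.05) and 2.54% of all genes, and for HDAC3 it was 0.31 with a 95% interval of -0.05 to 0.67.

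Combined shp300/CBP called 2 of 5 members in shCtrl cells, where 21% of genes were called, and 2 of 5 in shHOXB13 cells, where 30.3% were called. TBL1X was 7.04 and 7.08 against 10.9 and 11.7 in shCtrl cells, separate groups with a log2 change of -0.67 ± 0.21 (adjusted p = 0.039), a call that was lost without any 1 of the 4 libraries (adjusted p 0.11 to 0.16). In shHOXB13 cells TBL1X was 2.91 and 5.36 against 5.88 and 5.86, a change of -0.56 (adjusted p = 0.061) that was called on the deposited scale (-0.62, adjusted p = 0.027) and without replicate 2 of shHOXB13+shp300/CBP (-0.99, adjusted p = 0.00024). The 2 libraries of that group stood apart over all genes. Replicate 1 of shHOXB13+shp300/CBP held the lowest TBL1X value of all 28 libraries, from 185 reads. GPS2 rose further in shHOXB13 cells, from 27.0 and 30.0 to 40.0 and 39.5 (0.48 ± 0.14, adjusted p = 0.025), again lost on the deposited scale (adjusted p = 0.088) and without any 1 of the 4 libraries (0.057 to 0.15). NCOR1 was not called with any p300 or CBP hairpin, and its log2 changes ran from -0.18 to 0.24.

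CCS1477 went with more HDAC3 RNA in both backgrounds, less TBL1XR1 in both, and less NCOR1 and TBL1X in shCtrl cells. HOXB13 was also slightly lower with CCS1477 (-0.27, adjusted p = 0.032, and -0.25, adjusted p = 0.034), and its part was not tested. Of the 5 members, 4 were called in shCtrl cells, where 25.3% of genes were called (2 members, HDAC3 and NCOR1, when those 6 libraries alone were fitted with the replicate block), and 2 were called in shHOXB13 cells, where 35.7% were called. HDAC3 was 26.2, 29.1 and 27.3 with DMSO and 31.7, 35.3 and 34.7 with CCS1477 in shCtrl cells. In shHOXB13 cells it was 27.3, 27.8 and 23.2 with DMSO and 30.7, 31.8 and 32.9 with CCS1477. The CCS1477 libraries were higher in both backgrounds, and the log2 changes were nearly equal, at 0.30 ± 0.08 (n = 3 against 3; adjusted p = 0.016) and 0.29 ± 0.08 (adjusted p = 0.013), on both scales in the same direction. The shCtrl call was lost without replicate 2 of shCtrl CCS1477 (adjusted p = 0.053) and with equal totals per library. The shHOXB13 call was lost without replicate 3 of shHOXB13 DMSO (adjusted p = 0.055).

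NCOR1 fell from 24.2, 28.5 and 28.6 to 18.9, 20.4 and 20.8 in shCtrl cells (-0.43 ± 0.08, adjusted p = 0.0023), a call kept under every alternative. In shHOXB13 cells, where NCOR1 was already lower, it was 17.0, 15.6 and 15.8 with DMSO and 15.0, 15.5 and 13.7 with CCS1477 (-0.13, adjusted p = 0.24). TBL1X fell in shCtrl cells from 15.99, 16.4 and 16.5 to 13.8, 13.3 and 12.1 (-0.32 ± 0.07, adjusted p = 0.0070), but on the deposited scale this was not called (adjusted p = 0.054), nor in fits of only the 6 shCtrl libraries without (-0.30, adjusted p = 0.0503) or with replicate number as a block (adjusted p = 0.058). In shHOXB13 cells the TBL1X groups overlapped, at 8.06, 7.44 and 7.08 with DMSO and 7.64, 7.61 and 7.89 with CCS1477 (0.04, adjusted p = 0.74). On the deposited scale every CCS1477 library was above the DMSO libraries and TBL1X was called higher (0.24, adjusted p = 0.034), as it was with equal totals per library (0.28, adjusted p = 0.025).

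The CCS1477 effect on TBL1X differed between backgrounds by 0.35 ± 0.10 log2 units (interaction, adjusted p = 0.036), the single member called in a comparison that called 14.6% of genes. It was called on the deposited scale as well (0.48, adjusted p = 0.020), and it was lost without any 1 of 9 of the 12 libraries, with adjusted p of 0.052 to 0.087. The 3 whose removal left it called were replicate 1 of shCtrl DMSO, of shCtrl CCS1477 and of shHOXB13 DMSO. The NCOR1 interaction had the same sign (0.30, adjusted p = 0.098) and was called on the deposited scale (0.43, adjusted p = 0.0496), without replicate 1 of shCtrl DMSO (0.39, adjusted p = 0.028) and without replicate 1 of both shCtrl groups (0.35, adjusted p = 0.027).

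TBL1XR1 fell with CCS1477 in both backgrounds, from 52.3, 48.9 and 47.3 to 38.2, 40.7 and 43.0 in shCtrl cells (-0.28 ± 0.06, adjusted p = 0.0050) and from 37.3, 36.1 and 37.0 to 28.5, 27.4 and 27.6 in shHOXB13 cells (-0.40 ± 0.06, adjusted p = 0.00032). The shHOXB13 value was -0.15 (adjusted p = 0.16) when libraries were scaled to equal totals, and the shCtrl call was lost when only the 6 libraries compared were fitted, without (adjusted p = 0.063) or with the replicate block (adjusted p = 0.074). All CCS1477 libraries were below their DMSO libraries, and the difference between backgrounds was not called (-0.12, adjusted p = 0.40, 95% interval -0.30 to 0.07). TBL1XR1 was therefore called lower with HOXB13 KD, with shp300 in shCtrl cells, with shp300/CBP and with CCS1477. GPS2 was not called with CCS1477 when all libraries were used (0.24, adjusted p = 0.19, and 0.11, adjusted p = 0.55). In shCtrl cells it was called higher without replicate 1 of DMSO (0.38, adjusted p = 0.017) and without replicate 1 of both groups (0.34, adjusted p = 0.034), and on the deposited scale with the replicate block (0.32, adjusted p = 0.042). In shHOXB13 cells it was called higher on the deposited scale (0.32, adjusted p = 0.043) and with equal totals (0.35, adjusted p = 0.019).

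**Figure D3:**
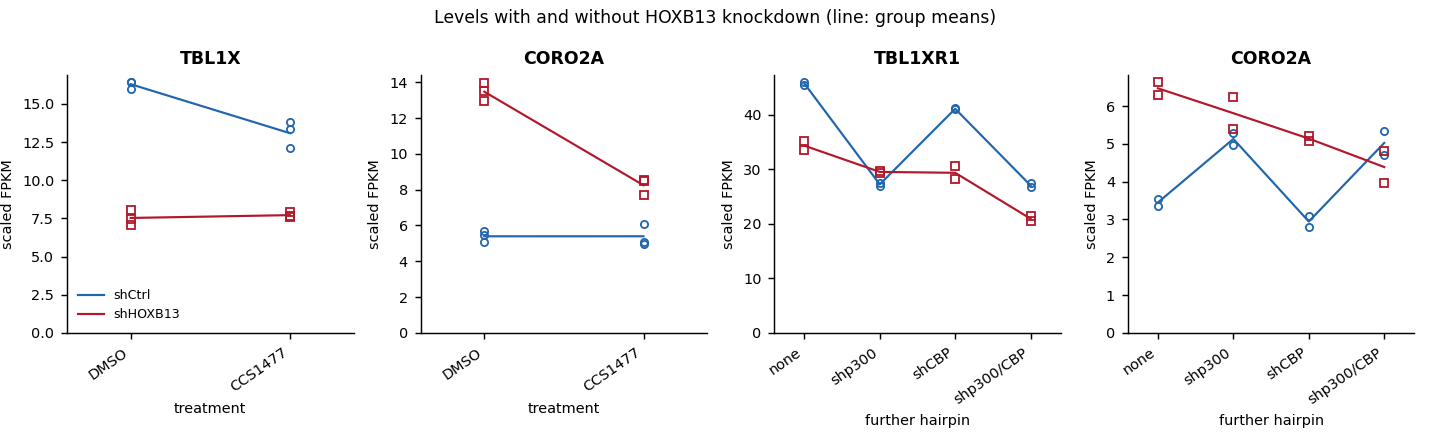
Scaled FPKM (vertical axis, from 0) of TBL1X, TBL1XR1 and the partner CORO2A in shCtrl (blue circles) and shHOXB13 cells (red squares), 1 marker per library and lines through group means. TBL1X fell with CCS1477 from 16.3 to 13.1 on average in shCtrl cells and was 7.53 and 7.71 in shHOXB13 cells, and TBL1XR1 with shp300 reached 27.3 in shCtrl and 29.5 in shHOXB13 cells.

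Ratios between members within a library do not depend on how libraries are scaled, and they are given without a test. The ratio of TBL1XR1 to TBL1X was 2.87–3.27 in shCtrl and 4.63–5.23 in shHOXB13 libraries under DMSO, and 3.87–4.24 and 5.73–5.98 in the KD series, so without further hairpin or inhibitor the WD40 subunits shifted towards TBL1XR1 with HOXB13 KD in both series without overlap. The ranges overlapped under CCS1477 (2.76–3.56 against 3.51–3.73) and with shCBP (4.47–4.78 against 4.76–6.07), and were 2.56–2.77 against 5.97–6.01 with shp300 and 3.77–3.89 against 3.99–7.04 with shp300/CBP. The share of GPS2 in the summed FPKM of the 5 members was 11.1–16.2% in shCtrl DMSO and 20.1–23.3% in shHOXB13 DMSO libraries. It reached 39.9–43.2% in shHOXB13+shp300/CBP libraries. Under DMSO the mean deposited FPKM of GPS2 itself was 20.24 with shCtrl and 19.65 with shHOXB13. The means of HDAC3 (29.5 and 22.1), NCOR1 (29.1 and 13.6), TBL1X (17.5 and 6.36) and TBL1XR1 (53.0 and 31.1) were lower with shHOXB13, so the share there rose with a smaller sum.

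The ratio of HDAC3 to the sum of EP300 and CREBBP compares RNA for the deacetylase with RNA for the acetyltransferases that oppose it. It was 0.99–1.18 in shCtrl DMSO and 1.35–1.77 in shHOXB13 DMSO libraries, without overlap, and it returned to 1.04–1.31 with CCS1477 in shHOXB13 cells. Scaled HDAC3 overlapped between the DMSO groups, whereas EP300 was 14.4–18.1 with shCtrl and 10.5–12.8 with shHOXB13. CREBBP was 7.70–9.48 and 5.22–5.58 scaled FPKM in the same groups. In shHOXB13 cells CREBBP rose with CCS1477 from 5.22–5.58 to 9.68–11.3 scaled FPKM (log2 change 0.96, adjusted p = 1.5e-05) and EP300 from 10.5–12.8 to 15.5–18.4 (0.53, adjusted p = 0.0020). In the KD series the shHOXB13 libraries (1.30 to 1.72) spanned the shCtrl libraries (1.33 to 1.38), so the shift was not seen there.

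**Figure D4:**
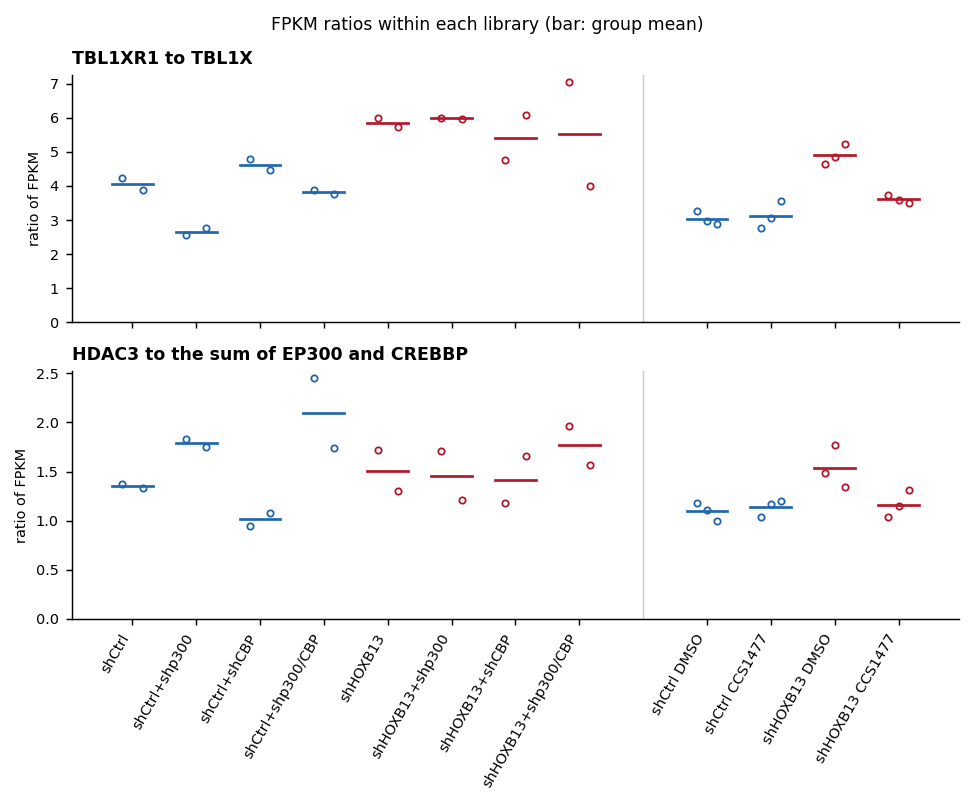
Ratios of deposited FPKM within each library, with shCtrl backgrounds in blue, shHOXB13 backgrounds in red and bars at group means. The TBL1XR1 to TBL1X ratio was 4.63–5.23 in shHOXB13 DMSO against 2.87–3.27 in shCtrl DMSO libraries, and the ratio of HDAC3 to EP300 plus CREBBP was 1.35–1.77 against 0.99–1.18.

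Of 9 partners that can join or recruit the complex, 2 rose and 2 fell with HOXB13 KD in the KD series (2 and 4 on the deposited scale). Under DMSO 3 rose and 4 fell of 8 tested (2 and 5 on the deposited scale). Of all genes, 33% were called in the KD series and 53.3% under DMSO. CORO2A, an actin-binding corepressor component, rose from 5.67, 5.08 and 5.44 to 13.5, 13.99 and 13.0 under DMSO (1.31 ± 0.09, adjusted p = 2.9e-07) and from 3.36 and 3.54 to 6.30 and 6.64 in the KD series (0.89 ± 0.13, adjusted p = 0.00036). CCS1477 lowered it in shHOXB13 cells to 8.55, 8.49 and 7.72 (-0.70, adjusted p = 0.00011) but not in shCtrl cells (0.00, adjusted p = 0.98; interaction -0.70, adjusted p = 0.0046). With shp300/CBP it rose in shCtrl cells (0.53, adjusted p = 0.015) and fell in shHOXB13 cells (-0.56, adjusted p = 0.0086; interaction -1.08, adjusted p = 0.0054). All of these calls on CORO2A were made on the deposited scale too. The fall with shp300/CBP in shHOXB13 cells was not called when only the groups compared were fitted, a setting that called no gene there. The shHOXB13+shp300/CBP libraries also stood apart from each other over all genes. Whether the CORO2A calls hold with single libraries left out was not examined.

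BCL6, a repressor that recruits NCoR, rose with HOXB13 KD from 16.2–17.6 to 47.5–57.5 scaled FPKM under DMSO (1.65, adjusted p = 1.6e-07) and by 2.05 in the KD series (adjusted p = 2.5e-07), and CCS1477 lowered it in shHOXB13 cells to 14.3–15.7 (-1.83, adjusted p = 3.0e-07) and in shCtrl cells to 9.23–12.4 (-0.68, adjusted p = 0.00087; interaction -1.15, adjusted p = 0.00072). HDAC4, a class IIa deacetylase that binds HDAC3 through the scaffold, fell (-1.31, adjusted p = 4.9e-05, under DMSO) from 2.00–2.36 to 0.66–0.98.

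Of 15 nuclear receptors that can bind NCoR, 1 rose and 4 fell in the KD series, and 2 rose and 7 fell of 14 tested under DMSO, where the median log2 change of the list was -0.46 against -0.015 for all genes. On the deposited scale 1 rose and 6 fell in the KD series, and 1 rose and 12 fell under DMSO. The shares called over all genes, 33% in the KD series and 53.3% under DMSO, apply to every list of this paragraph. THRB had the smallest adjusted p and fell (-2.63, adjusted p = 2.0e-08), and PPARD rose (0.75, adjusted p = 2.6e-06). Of 8 subunits of the TRiC chaperonin, which folds HDAC3 before it joins NCoR, 0 rose and 4 fell in the KD series, and 1 rose and 4 fell under DMSO, among them CCT5 (-0.48, adjusted p = 0.00034), CCT7 (-0.35, adjusted p = 0.0026) and CCT4 (-0.32, adjusted p = 0.0040). On the deposited scale 0 rose and 7 fell in each series. Of 6 circadian genes that REV-ERB represses through NCoR, 5 were tested and 1 rose and 3 fell in each series (0 and 3 in the KD series and 1 and 4 under DMSO on the deposited scale). Under DMSO, NPAS2 rose (1.13, adjusted p = 2.9e-05), and NFIL3 (-1.60, adjusted p = 1.3e-06) and CRY1 (-0.54, adjusted p = 0.00033) fell.

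Other deacetylase complexes were counted beside these. Under DMSO, where 53.3% of all genes were called, 2 of 13 NuRD genes rose and 8 fell, among them MTA3 (-0.75, adjusted p = 1.6e-05), HDAC2 (-0.71, adjusted p = 3.8e-05) and MTA1 (-0.77, adjusted p = 9.4e-05). Of 7 CoREST genes 0 rose and 6 fell, among them the demethylase KDM1A (-0.76, adjusted p = 4.6e-06), RCOR3 (-0.45, adjusted p = 0.00034) and RCOR2 (-0.92, adjusted p = 0.0017). Of 12 SIN3 genes 3 rose and 2 fell, with SAP30 lower (-1.79, adjusted p = 1.5e-06, but 0.21, adjusted p = 0.78, in the KD series) and BRMS1 (0.96, adjusted p = 5.0e-05) and SAP18 (0.91, adjusted p = 1.1e-05) higher. On the deposited scale the calls under DMSO were 0 up and 10 down for NuRD, 0 up and 7 down for CoREST, and 2 up and 8 down for SIN3. In the KD series, where 33% were called, 2 rose and 4 fell for NuRD, 0 and 3 for CoREST, and 2 and 1 for SIN3. The deposited scale gave 1 up and 9 down there for NuRD, 0 and 5 for CoREST, and 0 and 3 for SIN3. Whether the HDAC3-NCoR genes differ from these complexes was not tested.

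Over the 12 group means, centred within each series, NCOR1, TBL1X and TBL1XR1 went together (Pearson r of 0.74 for NCOR1 with TBL1X, 0.73 for TBL1X with TBL1XR1 and 0.62 for NCOR1 with TBL1XR1), and GPS2 ran opposite to TBL1X (r = -0.88). HDAC3 had an r between -0.26 and 0.29 with the other 4 on rescaled values, and between -0.35 and 0.75 on deposited values, where the groups share the shift of the median gene. Among 11279 genes with a mean of at least 1 FPKM in each series, those most like HDAC3 were LUZP1, ERCC3 and NCBP2 (r of 0.90 to 0.94), those most like NCOR1 were CEP44, ZDHHC6 and TACC1 (0.93 to 0.94), and those most like TBL1XR1 were TMA16, KLHL21 and SDHD (0.93 to 0.95). TBL1X was most like DKFZP434I0714, RPL13A and PABPC1 (0.98), and GPS2 most like PPP4C, OGFR and STX10 (0.98 to 0.99). These are descriptions over 12 groups that share hairpins and libraries, with no p. The share of all gene pairs that reach such r was not computed, so the r between members cannot be read as particular to the complex.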

How the data were processed

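Polyadenylated RNA from LNCaP cells was sequenced in 28 libraries, and the labels placed each in 1 of 12 groups. The FPKM values were deposited by the authors, who aligned reads with STAR (version 2.6.0 in the submitters' processing notes) to GRCh38, counted uniquely mapped reads per gene without strand and divided by gene length and all mapped reads. Depth was recovered from the values of microRNA genes of known length. Reads per gene used the smallest gene length that made all non-zero values whole reads (tolerance 0.02 reads), which was found for 19168 genes. The share of reads in genes was summed over these genes only. Of 26475 listed genes, 32 had no value.

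From these files, FPKM were divided by median-of-ratios factors within each series (0.789 to 1.21), since the deposited scale lowers the median gene with shHOXB13, and tested as log2(FPKM + 0.1) with 1 limma 3.58.1 fit per series (R 4.3.3, mean-dependent prior). A gene was tested if 2 KD libraries, or 3 of the CCS1477 series, reached 0.1 FPKM. Changes are on this log2 scale, which slightly understates low genes. The script was tested on simulated data. Sensitivity to pseudocount, filter, scaling, groups fitted, replicate block and single libraries was computed.

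The members, lists and tests were chosen with earlier results of these data known. The members were named in every comparison, and of each list the up to 3 called genes with the smallest adjusted p under DMSO, besides CORO2A; some genes that this rule names are not reported here. EIF5A, TTC19 and the shp300 and shCBP interactions were added after values were seen. Same-numbered shCtrl DMSO and shCtrl CCS1477 libraries deviated together from their group means (r of 0.48, 0.29 and 0.24), so for that comparison a fit with replicate number as a block was added after the data were seen. The 50-base windows are from GENCODE 44 transcripts.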

Additional observations from a re-analysis of the deposited data

Results flagged for a closer look

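Groups here hold 2 or 3 libraries, too few for a test of single outlying libraries. A difference of an effect between shCtrl and shHOXB13 cells was called by limma for TBL1XR1 with shp300 (0.53 log2 units, adjusted p = 0.034), for TBL1X with CCS1477 (0.35, adjusted p = 0.036), for CORO2A with shp300/CBP (-1.08, adjusted p = 0.0054) and with CCS1477 (-0.70, adjusted p = 0.0046), and for CREBBP with CCS1477 (0.62, adjusted p = 0.010). The TBL1XR1 comparison was added after values were seen, and its call did not survive the loss of any single library. The CORO2A and CREBBP calls were not examined with single libraries left out.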

How the results depend on the processing

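Of 24 changes of members that were called, 10 were called under every alternative tried, 14 lost the call under at least 1 and 1 changed sign. The one that changed sign was GPS2 with HOXB13 KD under DMSO, at -0.0261 on the deposited scale with or without the replicate block. Fitting only the groups compared left 0 members called with shp300 in shCtrl cells, 0 with shCBP in shCtrl cells, 0 with shp300/CBP in shHOXB13 cells and 2 with CCS1477 in shCtrl cells. Without a filter on low values, or with equal totals per library, 1 member was called with shp300/CBP in shCtrl cells. On the deposited scale 0 were called in the shp300 interaction, 4 with CCS1477 in shHOXB13 cells and 2 in the CCS1477 interaction, and 2 in the latter without replicate 1 of both shCtrl groups. Leaving out single libraries gave 0 to 1 called members with shCBP in shCtrl cells, 1 with shp300/CBP in shCtrl cells, 1 to 2 with it in shHOXB13 cells, 0 in the shp300 interaction, 1 to 2 with CCS1477 in shHOXB13 cells and 0 to 2 in the CCS1477 interaction. Same-numbered libraries deviated together (r over 0.1) in 4 of 56 pairs of the KD series. With 2 libraries per group, replicates 1 and 2 of any 2 groups give the same r. Each r (0.16 and 0.13) was therefore counted for both replicates, and those pairs are not independent. In the CCS1477 series it was 3 of 18, the 3 pairs of shCtrl DMSO with shCtrl CCS1477. The replicate block within those 6 libraries left 2 members called with CCS1477 in shCtrl cells, HDAC3 and NCOR1. Over whole series the block left 0 in the shp300 interaction, also on the deposited scale.

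Over all genes, fitting only the groups compared gave 0 calls with shp300 or shCBP in shCtrl cells (837 and 2384 otherwise), 2124 with shp300/CBP and 2345 with CCS1477 in shCtrl cells, and 443, 0 and 0 with shp300, shCBP and shp300/CBP in shHOXB13 cells, and 979 in the shp300/CBP interaction. The deposited scale gave 1226 and 271 with shp300 and shCBP in shHOXB13 cells, and 151 and 107 in their interactions. A pseudocount of 1 FPKM gave 475 in the shp300 interaction, and the replicate block 344 with shCBP in shHOXB13 cells. Block and deposited scale together gave 448 with shp300 in shCtrl cells, 1039 and 52 with shp300 and shCBP in shHOXB13 cells, and 1190, 114 and 22 in the shp300/CBP, shp300 and shCBP interactions. Leaving out single libraries gave 177 to 503 with shp300 and 792 to 1657 with shCBP in shCtrl cells, 1729 to 2409 with shp300/CBP, 584 to 1010 and 23 to 220 with shp300 and shCBP in shHOXB13 cells, 3217 to 5833 with shp300/CBP, 3759 to 4601 with HOXB13 KD, and 75 to 165, 12 to 338 and 832 to 3162 in the shp300, shCBP and shp300/CBP interactions. Groups of 2 or 3 libraries limit every p, and GPS2 and HDAC3 rested on as few as 175 and 162 reads in a library.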
